A study of Physcomitrium patens with 24 samples.

Results

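Loci protected at 30 min only are stretches of RNA of the moss Physcomitrium patens that carried a protein-protected site after 30 min of abscisic acid (ABA) and none after 0 or 60 min. They were chosen from 3 deposited lists of protected sites, 1 per time. Overlapping sites on the same strand of the 27 chromosomes were joined into 70742 loci. A locus was kept when both dsRNase replicates of 30 min had called it and no site of the 0-min or 60-min list lay in it. This left 693 loci, 0.98% of all loci and 3.41% (95% Wilson interval 3.17 to 3.67%) of the 20301 loci called in both dsRNase replicates of 30 min. Presence at 30 min and absence at 0 and 60 min are therefore the choice itself and are not results.

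Protein interaction profile sequencing (PIP-seq) digests RNA with nucleases while crosslinked proteins still cover it, and compares the fragments with those of RNA from which the proteins were removed first. Stretches that survive only under protein are called protein-protected sites. ABA is a plant hormone made in response to water shortage, and in mosses it is known to bring on tolerance of drying. RNA-binding proteins are known to alter the splicing, stability and translation of messenger RNAs, and some of them act in ABA signalling.

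The tissue was protonema, the filamentous juvenile stage, grown in liquid culture and crosslinked with formaldehyde. The 30-min and 60-min cultures received ABA and the control cultures the same volume of methanol, the solvent; the labels give no strain, and no group without ABA is labelled 30 or 60 min, so ABA and elapsed time cannot be told apart. The design text gives 10 µM ABA and the treatment protocol 10 mM. Each of the 24 libraries belongs to a time, an RNase, a protein state (proteins kept on or removed before digestion) and a replicate number, with 2 replicates in each of 12 groups, and the labels do not say that replicates came from separate cultures. The RNase was RNaseONE, which cuts single-stranded RNA (ssRNase), or RNase V1, which cuts paired RNA (dsRNase). Site names show 12 call sets (time, RNase and replicate), and the labels list 2 libraries for each, one with and one without protein.

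The call sets differed in size. At 30 min the dsRNase sets held 41031 and 29562 calls and the ssRNase sets 10369 and 17545. At 0 min the dsRNase sets held 37292 and 43293 calls and at 60 min 38567 and 36021, and the ssRNase sets of these times held between 7290 and 9463. The second dsRNase replicate of 30 min was thus the smallest dsRNase set and the second ssRNase replicate of 30 min the largest ssRNase set, and both bear on the loci described here. Neither read counts nor RNA levels were part of the lists, so depth is unknown, and less RNA and less bound protein cannot be told apart anywhere in what follows. Gene names, exons and sequence are not given, because no annotation of the build of these coordinates was used here.

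The 693 loci were short and thinly spread. They lay in 576 regions, a region being a run of same-strand sites, whatever their time, with gaps under 500 nt, and together they covered 31202 nt, 1.09% of the sequence covered at 30 min. A single locus was found in 492 of these regions, 2 in 58, 3 in 20, 4 in 5 and 5 in 1. Their median width was 40 nt, with quartiles of 32 and 51 nt and a range of 8 to 182 nt. Other 30-min sites called in both dsRNase replicates had a median of 64 nt (20367 sites). A width of 100 nt or more was reached by 2.74% of the 30-min-only sites and by 24.8% of the others. A wide site has more sequence in which a site of another time can exclude it, so these differences in width cannot be told apart from the rule. Loci chosen the same way at the other times were also narrow, with medians of 38 nt for 60-min-only and 35 nt for 0-min-only loci. Other sites called in both dsRNase replicates of those times had medians of 55 and 51 nt.

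The same choice made at the other times gave larger sets. There were 1599 loci at 60 min only, 7.19% (6.86 to 7.54%) of the loci called in both dsRNase replicates of that time, and 2571 at 0 min only, 10.9% (10.5 to 11.3%). The 30-min share was the lowest of the 3 under this rule. The number of 30-min-only loci was 891 to 5257 with 1 replicate left out (1068 when this was the first set of 0 min, 1279 when it was the first of 60 min, and 1659 and 5257 when it was replicate 1 or 2 of 30 min, where a single dsRNase call then decides), and the other times were not recomputed in this way, so the order is not shown to be stable. No test of this order is possible, since each time gives a single value, and the intervals cover counting error alone. The part of the small second dsRNase replicate of 30 min in the lower number was not tested.

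Requiring both replicates removed most candidates. In all, 7101 loci held sites of the 30-min list alone. DsRNase replicate 1 alone had called 4564 of them and replicate 2 alone 966, and 878 had ssRNase calls only. The loci just outside the rule, called by replicate 1 alone, had a median width of 32 nt and a median score of 8.20 (the authors' number for each site, of unstated unit), against 40 nt and 19.6 for the 693 loci. The lowest score was 6.57 with replicate 1 alone and 13.1 with both replicates. How scores of merged calls were combined is not stated, so this difference in score cannot be told apart from the rule. Scores were also compared at equal support. Among 30-min sites with calls of both dsRNase sets and of neither ssRNase set, the median score was 19.0 for the 606 sites of 30-min-only loci and 26.2 for the 10646 others. Width was not made equal, with medians of 39 and 50 nt. At the other edge of the rule, 62 of the 693 loci lay less than 10 nt from a site of 0 or 60 min, and 14 further loci were left out because of an overlap of at most 5 nt.

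Most of these loci stood inside RNA that was bound at another time as well. The surrounding region held a site at 0 or 60 min for 567 of the 693 loci, 81.8% (78.8 to 84.5%). For 375 loci (54.1%) the region was bound at both other times, for 160 (23.1%) at 60 min but not at 0 min, and for 32 (4.62%) at 0 min but not at 60 min. The remaining 126 loci (18.2%) lay in regions with no site at either other time. Around 60-min-only loci the region was bound at another time for 77.9% (75.8 to 79.9%), and around 0-min-only loci for 69.4% (67.6 to 71.1%). Of the 60-min-only loci 37.5% lay in regions bound at both 0 and 30 min, 39.0% in regions bound at 30 but not at 0 min, and 1.38% in regions bound at 0 but not at 30 min. Of the 0-min-only loci 53.2% lay in regions bound at both other times. These shares were not tested against each other.

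**Figure D1:**
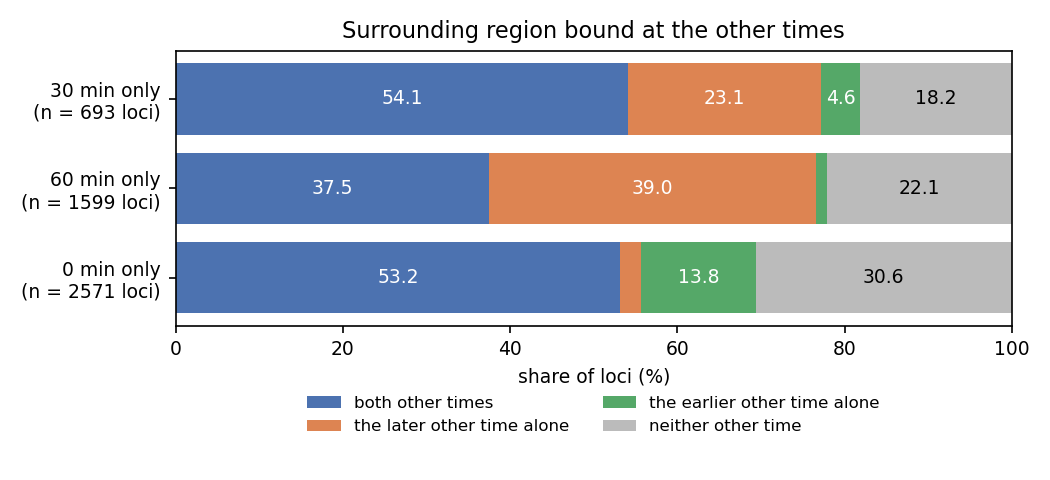
Shares (%) of loci found at a single time, in both dsRNase replicates, by whether the surrounding region held sites at the other times; each bar is 1 set of loci with its number. For 30-min-only loci 54.1% lay in regions bound at both other times and 18.2% in regions bound at neither.

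The 60-min list came closer to the 30-min-only loci than the 0-min list did. The nearest 60-min site on the same strand was a median of 135 nt away and the nearest 0-min site 556 nt. For 60-min-only loci the nearest 30-min site was a median of 155 nt away and the nearest 0-min site 3195 nt. Closeness of the 2 ABA times was thus not particular to the 30-min-only loci. A 60-min site lay less than 50 nt away from 216 loci (31.2%), and a 0-min site from 104 (15.0%). At the far end, 177 loci (25.5%) had no 0-min site within 5000 nt and 83 no 60-min site. Both lists together left 42 loci (6.06%) at least 5000 nt from any site of another time. Overlap with a locus on the opposite strand was found for 2 of the 693 loci, 0.289% (0.0792 to 1.05%), and for 18 of the 19608 other loci with calls of both dsRNase replicates, 0.0918% (0.0581 to 0.145%).

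**Figure D2:**
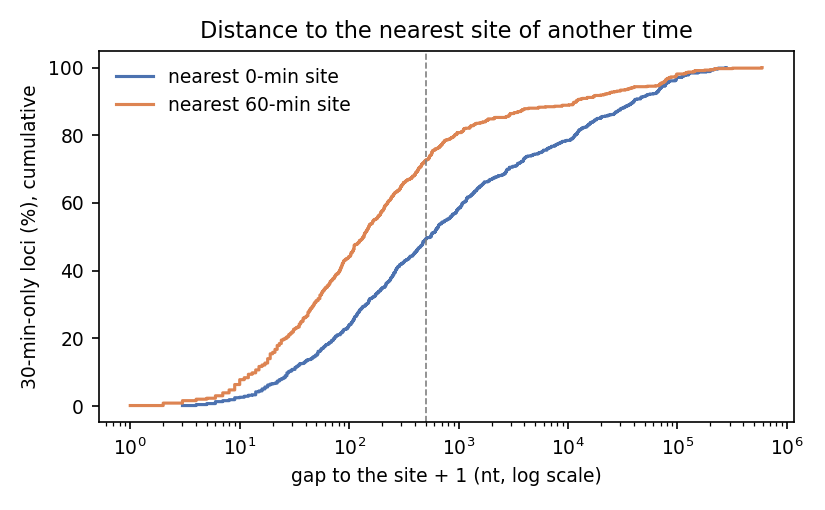
Cumulative share (%) of the 693 loci against the gap to the nearest 0-min or 60-min site on the same strand (nt plus 1, log scale); the dashed line marks 500 nt. The 60-min curve lies to the left, with a median of 135 nt against 556 nt.

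Neighbouring loci were also more often shared with 60 min. Of 1005 loci next to a 30-min-only locus in the same region, 26.1% also held 30-min sites alone, 31.9% held sites at 30 and 60 min, 21.5% at all 3 times, 6.17% at 0 and 30 min, and 14.3% had no 30-min site. Next to the other loci called in both dsRNase replicates of 30 min (32297 neighbours) these shares were 8.55%, 17.2%, 46.0%, 8.02% and 20.2%. Neighbours can lie on 1 RNA and are not independent observations, and no test was made. Within regions of at least 1000 nt, 21.6% of the 394 loci lay in the 20% of the region nearest its 5′ end and 22.1% in the 20% nearest its 3′ end, against 23.4% and 20.4% of 2079 other loci of the same regions with calls of both dsRNase replicates. The shares at the ends were thus within a few percent of those of the other loci.

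Calls of the ssRNase sets of 30 min were not part of the choice. Those of 0 and 60 min were, since any site of these lists excluded a locus. SsRNase replicate 1 called 30 of the 693 loci, 4.33% (3.05 to 6.11%), and replicate 2 called 72, 10.4% (8.33 to 12.9%). Either replicate called 87 loci and both called 15. The second replicate thus gave the higher share, as it gave the larger number of calls overall. Of 60-min-only loci the ssRNase sets of 60 min called 2.63% and 0.938%, and of 0-min-only loci the sets of 0 min called 4.28% and 2.92%. The mean of the replicates was 7.36% ± 4.29 for 30-min-only loci, 1.78% ± 1.19 for 60-min-only loci and 3.60% ± 0.962 for 0-min-only loci (SD, n = 2). The first was compared with each of the others by an exact permutation test, two-sided, and both comparisons gave p = 0.333 (0.333 after adjustment over the 2 tests), the smallest p this design allows, so neither difference could pass a threshold. By ssRNase replicate 1 alone the share was 4.33% for the 693 loci, beside 2.63% for 60-min-only and 4.28% for 0-min-only loci. Leaving out replicate 2 of 30 min for both RNases also changed the loci. The 30-min share, then over 5257 loci chosen by dsRNase replicate 1 alone, was 1.75%, below both other means.

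Set beside loci that recurred, the 30-min-only loci had few ssRNase calls. The rule bears on this, since an ssRNase site of 0 or 60 min moves a locus from the 693 to the others. When only dsRNase calls of 0 and 60 min excluded a locus, 764 loci were kept. The mean share of the 2 ssRNase replicates was then 10.5%, against 7.36% under the rule. Of the 19608 other loci called in both dsRNase replicates of 30 min, ssRNase replicate 1 called 27.0% and replicate 2 44.2%. At matched width the values were closer: among other loci of 30 to 50 nt the shares were 10.2% and 19.7%, and among the 398 30-min-only loci of that width 2.26% and 6.03%. Within the 30-min-only loci the share with a call of either ssRNase set was 7 of 159 below 32 nt, 9 of 173 from 32 to 39 nt, 11.0% from 40 to 50 nt and 28.3% from 51 nt upwards. At 0 and 60 min the single-time loci were also below the others of that time in both replicates.

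**Figure D3:**
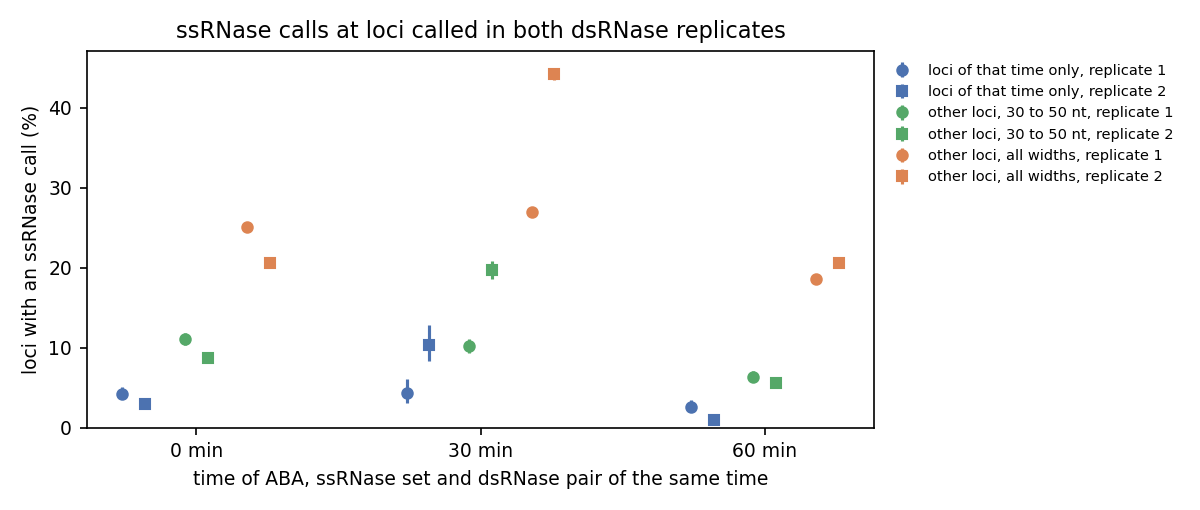
Share (%) of loci with dsRNase calls in both replicates of 1 time that each ssRNase replicate of that time called as well, with 95% Wilson intervals that cover counting error alone; circles are replicate 1 and squares replicate 2. At each time the loci of that time only (blue) lie below the other loci of 30 to 50 nt (green) and of all widths (orange).

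The plus strand held 468 of the 693 loci, 67.5%, against 56.5% of the other loci called in both dsRNase replicates of 30 min. As a share of the loci called in both of these sets, 30-min-only loci made up 4.06% (3.71 to 4.43%) on the plus strand and 2.57% (2.26 to 2.92%) on the minus strand. The call sets themselves were uneven between strands: the plus strand held 60.0% and 55.2% of the loci called by the dsRNase replicates of 30 min, 55.5% and 44.9% of those of 0 min, and 53.7% and 51.7% of those of 60 min. Of the 60-min-only and 0-min-only loci 43.5% and 39.2% were on the plus strand. Whether the strand balance of the call sets set that of the loci was not tested. By chromosome, the share ranged from 1.29% on chromosome 26 (7 of 543 loci) to 5.04% on chromosome 17 (30 of 595).

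The regions around these loci were then followed over time, with the single-time loci of all 3 times left out so that the loci used for the choice did not enter. The 576 regions held 4.26% and 3.77% of the remaining loci called by the dsRNase replicates of 0 min. Of those of 30 min they held 9.11% and 11.0%, and of those of 60 min 9.08% and 9.56%. The ssRNase sets followed the same course, from 4.33% and 3.94% before ABA to 10.5% and 10.8% after 30 min and 10.1% and 10.7% after 60 min. Every set of 30 and 60 min was above every set of 0 min for both RNases. In the 314 of these regions that had sites at all 3 times, the dsRNase shares were 4.11% and 3.65%, 6.73% and 8.32%, and 6.88% and 7.34% at 0, 30 and 60 min. The same order of values was found on each strand: in time order 5.69% and 5.58%, 9.96% and 12.5%, and 10.5% and 11.2% on the plus strand, and 2.36% and 2.26%, 7.84% and 9.20%, and 7.42% and 7.78% on the minus strand. The 60-min values thus lay beside the 30-min values and apart from those of 0 min. The 973 regions with a 60-min-only and no 30-min-only locus were also higher after ABA. Their dsRNase shares were 4.3% and 4.46%, 9.96% and 10.6%, and 13.0% and 13.2% in time order. The rise from 0 min was thus not particular to regions of 30-min-only loci.

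Regions were then tested one by one. Numbers of called loci per region in the 6 dsRNase sets were fitted with limma on a log2 scale, again without single-time loci, and 4268 regions had enough calls, among them 299 of the 576. More calls at 30 than at 0 min were found in 151 of the 299 (50.5%) by limma with Benjamini-Hochberg adjusted p under 0.05, against 14.5% of all tested regions. This count is no measure of the loci's surroundings by itself: 58 of the 299 regions had no 0-min site, could pass the minimum only through 30-min and 60-min calls, and were all called, as were 222 of 228 such regions without a 30-min-only locus. Of the regions with 0-min sites 93 of 241 were called (38.6%). Fewer calls were found in 1, against 1.66% of all tested regions. Where each time had a dsRNase call, 92 of 237 regions rose (38.8%), against 240 of 3704 regions without a 30-min-only locus (6.48%), with median log2 changes of 0.64 and -0.09. Regions with a 30-min-only locus were larger, with a median of 5.83 calls per set against 3.83. The rule asks less of a region empty at 0 min, where only the 60-min list has to lack a site. Of loci called in both dsRNase replicates of 30 min, the 30-min-only loci made up 2.12% in regions bound at both other times. The share was 7.82% in regions bound at 60 but not at 0 min and 7.19% in those bound at 0 but not at 60 min. In regions bound at neither it is 100% by the rule. These shares rest on the absences that the rule used, and no cause was tested. Regions around 60-min-only loci were tested alike. Of 407 tested regions with a 60-min-only and no 30-min-only locus, 209 (51.4%) had more calls at 30 than at 0 min, and 93 of 287 (32.4%) where each time had a dsRNase call. In the ssRNase sets 57 of 124 tested regions with a 30-min-only locus (46.0%) had more calls at 30 than at 0 min, against 12.8% of all tested regions, and 0 had fewer, against 0.509% (limma; at an unadjusted p under 0.05 also 0, against 2.89%). Regions without a 0-min call were not set apart in the ssRNase sets.

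No site of the 60-min list lay in 114 regions bound at 30 min alone and in 29 bound at 0 and 30 min. In the test outside single-time loci, fewer dsRNase calls at 60 than at 30 min were found in 4 of the 299 regions (1.34%), against 0.75% of all tested regions, and more calls in 0, against 0.0469% (limma with Benjamini-Hochberg adjustment). At an unadjusted limma p under 0.05 fewer calls were found in 16 of the 299 and more in 3, against 5.65% and 3.82% of all tested regions. In the ssRNase sets 0 of 124 had fewer calls at 60 min, against 0.17% of all tested regions (limma with Benjamini-Hochberg adjustment). At an unadjusted limma p under 0.05 there were 5 of the 124, against 5.09% of all tested regions. Regions with no 60-min call pass the minimum only through the times at which they are high. Where each time had a dsRNase call, fewer dsRNase calls at 60 min were found in 2 of 237 regions with a 30-min-only locus (0.844%). Among regions without one, 17 of 3704 had fewer (0.459%). The median log2 change from 30 to 60 min was -0.01 in the former regions and 0.01 in the latter. The comparisons of 30 with 0 and of 60 with 30 min share the 30-min sets. No region with 2 or more such loci passed both as a rise by 30 min and a fall by 60 min.

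**Figure D4:**
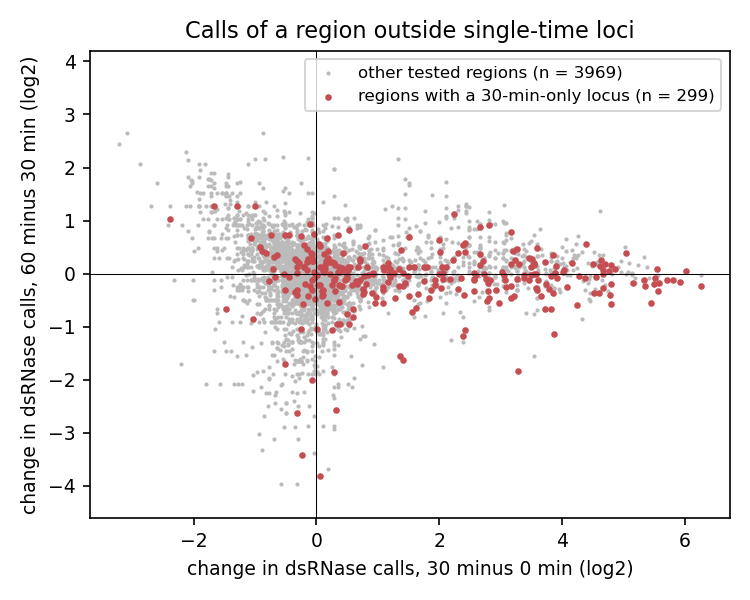
Fitted log2 change in dsRNase calls per region outside single-time loci, 30 minus 0 min (horizontal) and 60 minus 30 min (vertical), for 299 regions with a 30-min-only locus (red) and 3969 others (grey); both axes use the 30-min sets. Many red points, the 58 regions with no 0-min site among them, lie to the right and near 0 on the vertical axis. The test for fewer calls at 60 min was passed by 4 of the 299 regions. Of the 237 with a dsRNase call at each time, 2 passed it.

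The 4 regions with fewer calls at 60 min are named here after their values were seen; each held 2 of the 30-min-only loci. On chromosome 2 a minus-strand region (8264540 to 8266071) had 7 and 7 called loci in the dsRNase replicates of 0 min outside the chosen loci, 7 and 5 at 30 min and none in any of the 4 sets of 60 min. With a floor of 3 loci per set at 60 min the drop was at least 2-fold. No p is given for this region or the next. Without 60-min calls both pass the minimum only through the times at which they are high. A plus-strand region some way downstream on the same chromosome (8273368 to 8274520) had 6 and 6, then 7 and 4, then none, at least 1.83-fold lower. Its call did not pass without scaling or with the 4 sets of 30 and 60 min alone. Both thus had sites at 0 and 30 min and no site at 60 min. A region of chromosome 11 (12409121 to 12411685, plus strand) had 5 and 5, 9 and 5, and 2 and 0 called loci, and fell by 2.57 ± 0.53 on the log2 scale from 30 to 60 min (SE, limma adjusted p = 0.0352). The region of chromosome 25 (2624301 to 2625511, plus strand) had 9 and 7, 9 and 7, and 2 and 1, and fell by 2.00 ± 0.35 on the same scale (limma adjusted p = 0.00945). The calls on chromosomes 11 and 25 did not pass without scaling (limma adjusted p = 0.442 and 0.172) or without replicate 2 of 30 min (0.121 and 0.0771), and that on chromosome 11 did not pass without replicate 2 of 60 min (adjusted p = 0.11). The chromosome 11 call also failed with a prior of 0.25 calls (0.176), a minimum mean of 1 call (0.106) and scaling per call set (0.116), so in 6 of 14 alternatives, and the chromosome 25 call in the ssRNase sets (0.197), so in 3 of 16.

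The region with the most loci was on chromosome 16 (12174615 to 12175558, minus strand). It held 5 of the 30-min-only loci among 7 loci, with 6 and 7 loci called by the dsRNase replicates of 30 min, 0 and 2 by the ssRNase replicates, none in the 4 sets of 0 min, and 1 and 1 by the dsRNase replicates of 60 min. Of its 944 nt, sites covered none at the start, 503 nt after 30 min and 32 nt after 60 min. The 5 loci were 148, 52, 80, 24 and 77 nt wide from the 5′ end, and the 0-min site nearest to any of them on that strand was 96989 nt away. The region thus went from no site to 7 sites and then to 1. It had too few other calls to be tested.

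The other regions named for their number of loci held 4 each and differed in what surrounded them. On chromosome 5 (8237724 to 8238500, plus strand) dsRNase called 6 and 4 loci at 30 min and none at the other times, no ssRNase set had a call, and covered sequence was 327 nt at 30 min alone. A plus-strand region of chromosome 4 (20867866 to 20870208) went from 3 and 1 loci called by dsRNase before ABA to 12 and 8 after 30 min and 1 and 2 after 60 min, and covered sequence from 172 to 813 to 133 nt. Outside the chosen loci its changes did not pass the test (log2 1.36 ± 0.49 by 30 min, limma adjusted p = 0.079; log2 -1.56 ± 0.49 by 60 min, adjusted p = 0.203). The rise passed in 6 of 14 alternatives and the fall in 3 of 14. Both counts include the setting with all loci counted, in which the chosen loci enter and the rule itself bears on the outcome. The rise passed without replicate 1 of 0 min (limma adjusted p = 0.0182) and without replicate 1 or 2 of 60 min (0.0221 and 0.0405), and the fall without replicate 2 of 0 min (0.0233). With the 4 sets of the times compared alone both passed (0.0254 and 0.0294).

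On chromosome 14 (7474726 to 7477141, minus strand) no set of 0 min had a call, dsRNase called 13 and 15 loci at 30 min and 8 and 10 at 60 min, and covered sequence was 0, 1099 and 471 nt. Outside its 4 chosen loci the dsRNase replicates of 30 min had 9 and 11 calls, at least 3.33-fold above a floor of 3 per set. No p is given, since a region without 0-min calls passes the minimum only through the times at which it is high. Those of 60 min had 8 and 10 (log2 -0.27 ± 0.41 from 30 min, adjusted p = 0.957). The second chromosome 4 region (16422654 to 16426057, plus strand) was bound throughout, with 12 and 13, then 22 and 19, then 12 and 12 loci called by dsRNase, and 848, 1630 and 793 nt covered. Its 4 loci of 31 to 54 nt lay 24 to 226 nt from the nearest site of another time, and outside them neither change passed (limma adjusted p = 0.625 and 0.884).

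**Figure D5:**
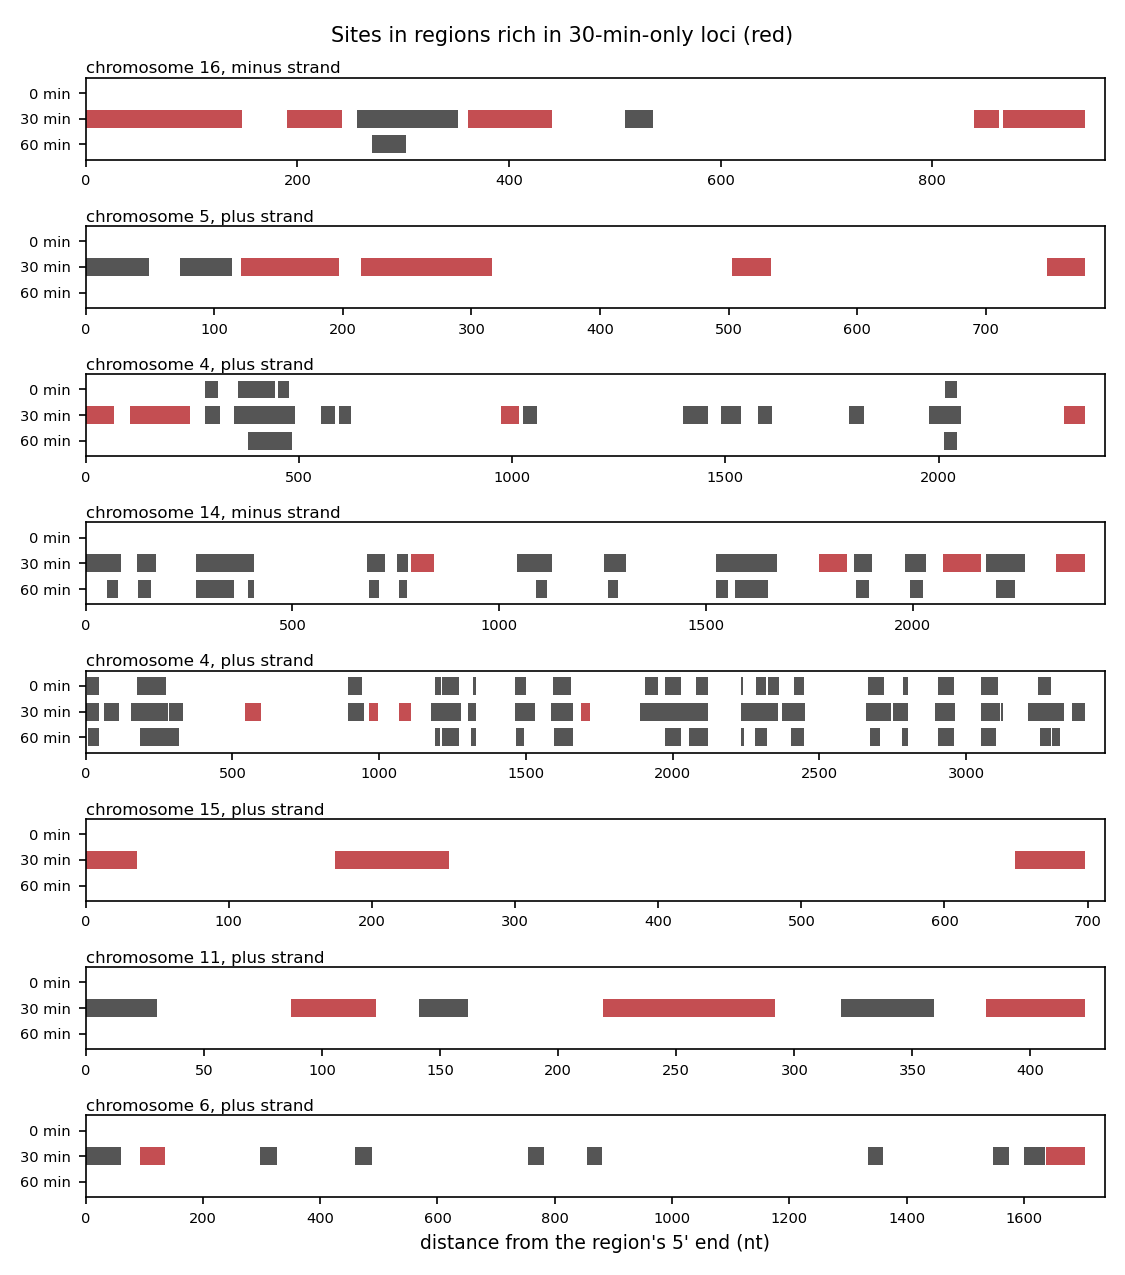
Sites of the 0-min, 30-min and 60-min lists in the 8 named regions, drawn to scale by distance from the region's 5′ end (nt, a scale of its own for each panel); red marks 30-min-only loci and dark grey other sites. The regions on chromosomes 5, 15, 11 and 6 hold sites at 30 min alone, while those on chromosomes 14 and 4 keep sites at 60 min.

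Regions bound at 30 min alone were mostly single sites. There were 114 such regions with 126 of the loci, 82 of them consisted of a single locus, and their median span was 41 nt. Only 8 held 2 or more of the loci. Besides the chromosome 5 region, those with the most chosen sequence were on chromosome 15 (12109248 to 12109945, plus strand), chromosome 11 (12969103 to 12969525, plus strand) and chromosome 6 (1809162 to 1810865, plus strand). On chromosome 15 the replicates of dsRNase called 3 and 3 loci at 30 min, all of them 30-min-only loci of 36, 80 and 49 nt, and ssRNase replicate 1 called 1. On chromosome 11 they called 3 and 5 loci, and both the 0-min and the 60-min list resumed 611 nt from the nearest of its 3 chosen loci, so that the gap of 500 nt decides whether it counts as bound at other times. On chromosome 6 they called 9 and 3 loci over 1704 nt, and the nearest site of another time was at least 13178 nt from its 2 chosen loci.

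The widest loci were all inside regions bound at 60 min. On chromosome 15 a locus of 182 nt (14279940 to 14280121, minus strand) lay 60 nt from a 60-min site and 268 nt from a 0-min site. On chromosome 21 a locus of 180 nt (2993652 to 2993831, minus strand) was made of 1 call of dsRNase replicate 1 and 3 of replicate 2. The next were 157 nt wide, on chromosome 9 (1650907 to 1651063, plus strand), 47 nt from a 60-min site, and on chromosome 13 (2889656 to 2889812, plus strand), which all 4 sets of 30 min called. The nearest 0-min site to the latter was 45918 nt away.

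Among the 15 loci called by both RNases in both replicates, 4 were farthest from any other-time site. A locus of 58 nt on chromosome 21 (12266605 to 12266662, plus strand) was 3208 nt from the nearest 60-min and 214890 nt from the nearest 0-min site. A locus of 66 nt on chromosome 23 (7785673 to 7785738, plus strand) was the only site of its region, 915 nt from a 60-min site. The others, of 52 nt on chromosome 4 (11806740 to 11806791, plus strand) and 110 nt on chromosome 10 (8575343 to 8575452, plus strand), were 541 and 291 nt from a 60-min site, in regions with no 0-min site. All 4 were thus nearer to a 60-min than to a 0-min site. None of the 368 loci with a 30-min site on each side in their region had a pattern of widths and gaps that recurred exactly elsewhere in the list, the sign looked for of near-identical copies that share reads.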

How the data were processed

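Per the submitters' processing notes, cutadapt 1.2.1 and TopHat2 2.0.10 were used; the build they name, mm10, is a mouse build, and no source used here names the build of the moss coordinates. The deposited lists give chromosome, start, end, strand, a score (the authors' value, unit not stated) and the names of merged calls; the names of the lists contain CSAR and a false discovery rate of 5%. The reference table given has 26 chromosomes and another build, so none of its names or coordinates were used. Coordinates are 1-based.

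Sites were joined at an overlap of at least 1 nt into loci and at gaps under 500 nt into regions. Leaving out a replicate removed its calls; merged sites kept their width. Called loci per region plus a prior of 0.5 were scaled per call set and strand and fitted in limma 3.58.1 under R 4.3.3, using a mean trend and 1 model for all 3 times, on regions with a mean of at least 2; Benjamini-Hochberg adjustment, threshold 0.05. The fit was also run on simulated data, with calls drawn independently and changes placed only in regions well above the minimum. That run does not show how the fit does near the minimum or with calls that depend on each other. P-values measure the spread between these sets, which may be technical. Except for 4 regions named after their values were seen, regions and loci were named by rule (most members, most sequence in regions bound at no other time, widest, both ssRNase calls and farthest from other sites; a rule for regions past both comparisons named none). The members, lists and rules were chosen with earlier results of these data known. Shares and intervals used Python 3.11.15 with SciPy 1.17.1.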

Additional observations from a re-analysis of the deposited data

How the results depend on the processing

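The number of 30-min-only loci depended on the rule. It was 437 with sites less than 50 nt apart joined and 1331 when sites under the 25th percentile of their list's score were dropped, which also removes sites that exclude a locus. Leaving out 1 replicate number of 1 time (both RNases) gave 891 to 5257; it was 1068 without replicate 1 of 0 min, 1659 and 5257 without replicate 1 and 2 of 30 min, where 1 dsRNase call decides, and 1279 without replicate 1 of 60 min. The mean share called by the ssRNase replicates of 30 min, 7.36% under the main rule, was 1.75% to 10.4% over these. It was lowest without replicate 2 of 30 min, where it is the share of replicate 1 alone. The share in regions bound at other times was 71.2% with sites joined at 50 nt, 77.6% in the higher-scoring sites, 65.8% with a 200 nt and 88.2% with a 1000 nt gap, and 72.3% to 85.4% with a replicate left out. The median width of 33 to 42 nt stayed within the quartiles.

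Regions with more calls at 30 than at 0 min numbered 91 with a 200 nt gap (50.3% of the 181 tested, against 14.5% of all tested regions). In the ssRNase sets they numbered 57 (46.0%, against 12.8%). Regions without a 0-min site were not set apart in these counts. With a replicate left out, the median log2 change from 0 to 30 min was 1.09 to 1.41 in regions with a 30-min-only locus. Over all tested regions it was -0.14 to 0.13. Regions with fewer at 60 min numbered 7 with all loci counted, 7 with a prior of 1 call, 1 without scaling, 0 in the ssRNase sets and 2 to 9 with a replicate left out, with 2 without replicate 2 of 30 min and 9 without replicate 1 of 60 min. With all loci counted the chosen loci enter, which lack 60-min sites by the rule, so the rule itself bears on that count. With the replicate number as a block, 155 regions rose by 30 min (51.8%, against 14.8% of all tested regions) and 4 fell by 60 min (1.34%, against 1.1%). Replicate differences correlated across regions at -0.052 between 0 and 30 min, -0.029 between 0 and 60 min and 0.197 between 30 and 60 min. Whether the numbers pair the samples, those of 30 and 60 min above all, is thus not settled. An alternative chosen after seeing the data asked for a change of at least 1 on the log2 scale besides the adjusted p. It gave 150 rises (50.2%, against 14.4% of all tested regions) and 4 falls (1.34%, against 0.75%). Over all tested regions, fewer calls at 60 min were found in 32, in 5 without scaling and in 118 without replicate 1 of 60 min; more calls at 30 min were found in 617, and in 409 without scaling. The cause was not tested.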
